A study of Mus musculus with 6 samples.

Results

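The 10 genes described here encode CXC chemokines (Cxcl1, Cxcl2, Cxcl5, Cxcl9, Cxcl10, Cxcl11, Cxcl12, Cxcl14 and Cxcl16) and fractalkine (Cx3cl1). They were taken by gene symbol from a table of 54532 genes, and each symbol had 1 row. The table came from RNA-seq of mouse vascular smooth muscle cells, which according to the study were isolated from the mouse aorta. The cells carried an adenoviral vector with either a control plasmid (Ad-Con, n = 3) or an overexpression plasmid for pyruvate dehydrogenase kinase 4 (Ad-PDK4, n = 3) that limits entry of pyruvate into mitochondrial oxidation. The study states that both groups were then exposed to angiotensin II, a treatment that the labels do not mention, and that replicates were biological. Cells without vector or without angiotensin II were not analysed here. The comparison addresses how PDK4 overexpression alters gene expression in these cells.

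Chemokines are small secreted proteins that guide leukocytes along a gradient. CXC chemokines that carry a glutamate-leucine-arginine (ELR) motif, here Cxcl1, Cxcl2 and Cxcl5, act on Cxcr2 and recruit neutrophils, whereas Cxcl9, Cxcl10 and Cxcl11 are typically induced by interferons and act on Cxcr3 of activated T cells and NK cells. Cxcl12 is made constitutively by stromal cells and acts on Cxcr4 and on the scavenger receptor Ackr3. Cxcl16 and fractalkine are made as membrane-bound proteins that hold leukocytes on the cell surface and are shed by metalloproteinases. In the arterial wall such signals are known for drawing in leukocytes during inflammation.

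The libraries held between 17588942 and 21861872 reads assigned to genes, so that 1 read in a gene of 1 kb was worth 0.0453 to 0.0571 FPKM. Across genes, which are not independent replicates, log2 values correlated at 0.970 to 0.975 within groups and at 0.923 to 0.928 between them. Pdk4 itself had 679, 642 and 646 reads in the Ad-Con libraries against 490, 455 and 572 in the Ad-PDK4 libraries, a log2 ratio of -0.42 (Ad-PDK4 over Ad-Con on the log2(FPKM + 0.1) scale, limma adjusted p = 1.1e-03). Its direction goes against the overexpression label. Whether reads from the plasmid insert are part of this count was not tested, and neither was the assignment of the labels. The groups are therefore named by their labels, and each direction below compares the label Ad-PDK4 with the label Ad-Con. Of 9 smooth muscle markers, Acta2 fell from 78.0 ± 0.950 to 36.2 ± 2.40 FPKM (limma adjusted p = 5.3e-06), Cald1 rose from 56.0 ± 0.646 to 71.9 ± 2.82 FPKM (limma adjusted p = 6.6e-04), and Smtn had 8.32 ± 0.114 and 8.44 ± 0.445 FPKM. Lmod1 had 44 to 64 reads in the Ad-Con libraries and 36 to 50 in the Ad-PDK4 libraries, while Myh11, Tagln, Cnn1, Des and Myocd had at most 30 reads in any library. The list summed to 143 to 145 FPKM in Ad-Con and to 114 to 122 FPKM in Ad-PDK4. Of 6 fibroblast markers, Col1a1, Col1a2, Dpt and Lum fell, Dcn rose from 90.1 ± 8.20 to 161 ± 19.0 FPKM (limma adjusted p = 4.0e-04), and Pdgfra had 20.5 ± 0.729 and 19.9 ± 0.804 FPKM. Their sum, led by Col1a1, was 1599 to 1742 FPKM in Ad-Con and 835 to 918 FPKM in Ad-PDK4.

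Promoter sequences from RefSeq on GRCm38.p6 were matched by symbol to 7 of the 10 genes, that is to all but Cxcl5, Cxcl11 and Cxcl16. The sequences below are the 250 bases before the annotated start, read 5′ to 3′ on the strand of the gene. Of these 7 genes, Cxcl1, Cxcl2 and Cxcl10 are shown because they had the clearest differences described below. Cxcl9 is shown because it lies beside Cxcl10 with hardly any reads, and Cxcl12 because it was highest of all members in both groups. The windows of Cxcl14, which also held matches, and of Cx3cl1 are not printed. Capitals mark matches to the interferon-stimulated response element core (GAAA, any 2 bases, GAAA) or to the kappa-B consensus. The windows are chr5:90890995-90891244, plus strand for Cxcl1, chr5:90903649-90903898, plus strand for Cxcl2, chr5:92348890-92349139, minus strand for Cxcl10, chr5:92328080-92328329, minus strand for Cxcl9 and chr6:117168285-117168534, plus strand for Cxcl12. The RefSeq starts of Cxcl1, Cxcl2 and Cx3cl1 lie downstream of the gene starts in the deposited table. For Cx3cl1 the bases before the RefSeq start are chr8:94771930-94772179, while the deposited gene start is 94772009. Its window thus reaches well into the annotated gene.
Cxcl1: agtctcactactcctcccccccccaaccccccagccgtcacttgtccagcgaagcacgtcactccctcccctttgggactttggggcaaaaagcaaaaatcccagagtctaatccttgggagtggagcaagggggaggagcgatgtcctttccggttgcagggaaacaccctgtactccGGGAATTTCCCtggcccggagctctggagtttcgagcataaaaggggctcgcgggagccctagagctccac
Cxcl2: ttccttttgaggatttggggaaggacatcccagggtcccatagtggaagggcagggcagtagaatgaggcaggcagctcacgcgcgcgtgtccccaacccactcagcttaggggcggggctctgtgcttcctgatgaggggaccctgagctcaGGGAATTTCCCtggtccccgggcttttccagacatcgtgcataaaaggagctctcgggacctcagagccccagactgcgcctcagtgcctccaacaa
Cxcl10: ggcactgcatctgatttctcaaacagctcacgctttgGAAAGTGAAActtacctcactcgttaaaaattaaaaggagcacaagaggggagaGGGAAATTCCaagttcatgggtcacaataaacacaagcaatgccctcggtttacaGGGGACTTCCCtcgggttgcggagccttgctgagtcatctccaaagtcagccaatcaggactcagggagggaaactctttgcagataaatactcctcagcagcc
Cxcl9: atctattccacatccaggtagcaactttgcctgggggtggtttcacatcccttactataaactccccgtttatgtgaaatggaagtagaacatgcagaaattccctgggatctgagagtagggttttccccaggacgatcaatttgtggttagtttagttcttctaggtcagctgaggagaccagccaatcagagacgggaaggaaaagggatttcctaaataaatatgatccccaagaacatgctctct
Cxcl12: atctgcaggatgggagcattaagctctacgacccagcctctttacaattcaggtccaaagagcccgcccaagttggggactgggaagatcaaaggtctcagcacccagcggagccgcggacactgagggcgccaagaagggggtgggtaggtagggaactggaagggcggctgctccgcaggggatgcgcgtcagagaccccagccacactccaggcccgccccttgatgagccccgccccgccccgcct

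Motifs were searched on both strands of windows that also held the 50 bases after the start, and their share among all 32851 promoters of that length is given for comparison. Cxcl1 and Cxcl2 carried the same 11-base kappa-B match, GGGAATTTCCC, at -71 to -61 and at -97 to -87 from the start, where -1 is the last base before it. This stretch holds overlapping matches on both strands. Cxcl10 carried the response element match GAAAGTGAAA at -213 to -204 and kappa-B matches at -159 to -150 (GGGAAATTCC) and -104 to -94 (GGGGACTTCCC). The kappa-B consensus occurred in 8.46% of all promoters and in 3 of the 7 members, the response element core in 3.44% and in 2 of 7, and both together in 0.247% and in Cxcl10 alone among the 7. The other member with a response element match was Cxcl14 (GAAACAGAAA, -172 to -163), which also had the single match among the 7 to the gamma-activated site core TTCNNNGAA (TTCTGAGAA, -191 to -183), found in 8.30% of promoters. The windows of Cxcl9, Cxcl12 and Cx3cl1 held none of these letters. A match describes sequence and does not show binding.

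**Figure D1:**
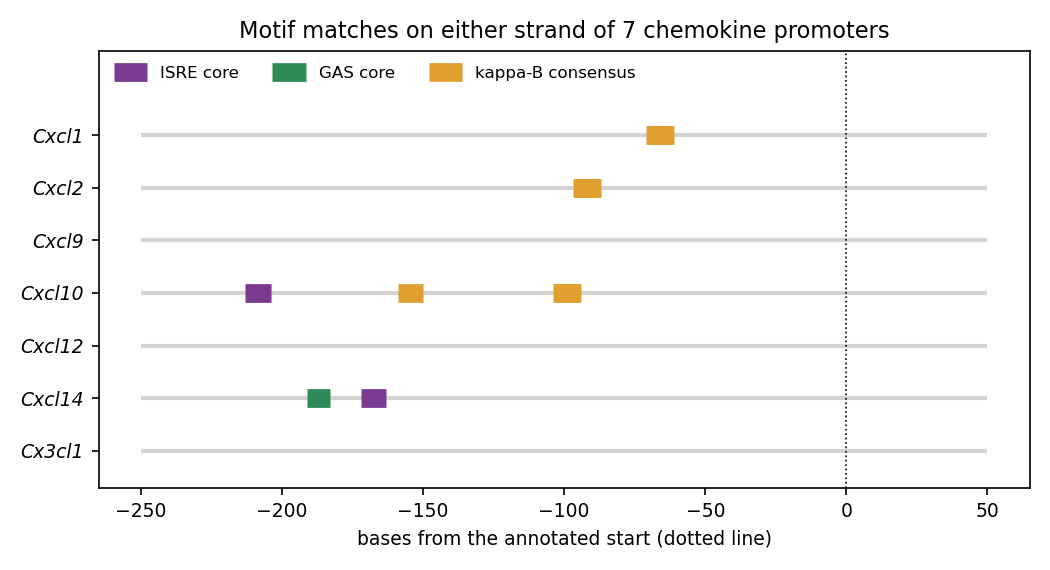
Motif matches in the promoter windows of 7 chemokine genes, with bases from the annotated start on the horizontal axis and 1 row for each gene. The marks show Cxcl10 with the response element core and kappa-B matches, Cxcl1 and Cxcl2 with a kappa-B match each, Cxcl14 with the response element and gamma-activated site cores, and 3 genes without a match.

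Across the table, 13423 genes had a mean FPKM of at least 0.5 over the 6 libraries and were tested with limma on log2(FPKM + 0.1), a scale on which fold changes of low genes are understated. Of these, 21.8% were called higher and 20.8% lower under the Ad-PDK4 label at a Benjamini-Hochberg adjusted p below 0.05, and with a fold of at least 2, 3.95% were called higher and 2.68% lower. Of the 10 chemokine genes, 6 passed the filter on low values, and all 6 of those (Cxcl1, Cxcl5, Cxcl10, Cxcl12, Cxcl16 and Cx3cl1) were called higher. Among them, Cxcl5 and Cxcl10 passed the filter only through their level in the Ad-PDK4 libraries, so the count is an account of the members and no measure of their tendency. Cxcl2, Cxcl9, Cxcl11 and Cxcl14 lay under the filter and are described by their reads. Counting all members whatever their level, 8 of 10 had every Ad-PDK4 library above every Ad-Con library, which held for 27.8% of the 13423 genes tested and for 17.8% of the 25202 genes with any value above 0. In bulk RNA, a difference in the number of expressing cells and one in RNA per cell cannot be told apart.

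The ELR chemokines, ligands of Cxcr2 that draw neutrophils, had at most 1 read in any Ad-Con library apart from Cxcl1. Cxcl1 (ENSMUSG00000029380, chromosome 5, 90891241 to 90893115 on GRCm38, plus strand) had 27, 35 and 35 reads in Ad-Con replicates 1 to 3 and 456, 430 and 941 in Ad-PDK4 replicates 1 to 3. The levels were 0.707, 1.06 and 1.03 FPKM against 13.4, 13.1 and 22.7 FPKM. The groups did not overlap, and Ad-PDK4 replicate 3 stood above the other libraries of its group. Cxcl1 rose from 0.933 ± 0.196 to 16.4 ± 5.48 FPKM (mean ± SD, n = 3 per group), with a log2 ratio of 3.97 (SE 0.25, 95% interval 3.37 to 4.57, limma adjusted p = 4.8e-05).

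Cxcl5 (ENSMUSG00000029371, chromosome 5, 90759360 to 90761624, plus strand), made mainly by epithelial and stromal cells as a neutrophil attractant, had 0, 1 and 0 reads in the Ad-Con libraries and 47, 59 and 72 in the Ad-PDK4 libraries. In FPKM the latter were 1.39, 1.81 and 1.75. Every Ad-PDK4 library lay above every Ad-Con library, and the Ad-Con group rested on a single read. The log2 ratio was 3.99 (SE 0.38, limma adjusted p = 1.2e-04), and the ratio of the pooled counts, scaled by library, was 173 with a 95% counting interval of 30.6 to 6856. Under other pseudocounts and with limma-voom on the recovered reads the log2 value ran from 1.39 to 6.69, so that its size depends on how the near-zero group is treated, while the call held in all 14 alternatives that tested it. Stretches of 50 bases shared with 4 other genes made up 5.15% of its transcript sequence. Among the other members such stretches made up 7.60% in Cxcl2 (1 gene), 2.28% in Cxcl9 (72 genes) and 1.53% in Cxcl11 (5 genes).

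Cxcl2 (ENSMUSG00000058427, chromosome 5, 90903871 to 90905938, plus strand), another rapidly induced neutrophil attractant, had 0 reads in each Ad-Con library and 34, 22 and 43 in the Ad-PDK4 libraries, or 0.903, 0.608 and 0.941 FPKM. The Ad-PDK4 libraries were thus the only ones with reads. Against a floor of 3 reads in each library, which a count of 0 allows, the level was at least 10.5-fold higher under the Ad-PDK4 label. Cxcl2 lay under the filter, and in the fit without it the adjusted p was 3.8e-04 (limma, Benjamini-Hochberg over 25202 genes, of which 10.6% were called higher and 9.93% lower). Counting intervals and floors here cover counting error only and leave out the spread between replicates. They also take each read as a separate molecule, which PCR copies are not.

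The ligands of Cxcr3, which attract activated T cells, covered a wide range of levels. Cxcl10 (ENSMUSG00000034855, chromosome 5, 92346638 to 92348889, minus strand) had 4, 7 and 6 reads in the Ad-Con libraries and 1889, 1804 and 3150 in the Ad-PDK4 libraries. The levels of 0.0873, 0.177 and 0.147 FPKM stood against 46.1, 45.8 and 63.3 FPKM. The groups lay far apart, and again Ad-PDK4 replicate 3 was the highest library. Cxcl10 rose from 0.137 ± 0.0457 to 51.7 ± 10.0 FPKM (n = 3), a ratio of means of 377 and a log2 ratio of 7.77 (SE 0.18, 95% interval 7.36 to 8.19, limma adjusted p = 1.1e-07). The log2 value lay between 5.52 and 8.50 in the 15 alternatives that could change it. The gene overlaps Art3 on the opposite strand, which had 14 reads in all Ad-Con libraries together and 12 in all Ad-PDK4 libraries.

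Cxcl11 (ENSMUSG00000060183, chromosome 5, 92359544 to 92365485, minus strand), annotated as a polymorphic pseudogene because some mouse strains lack an intact reading frame, had 0 reads in each Ad-Con library and 6, 8 and 24 in the Ad-PDK4 libraries. It was at least 3.87-fold higher under the Ad-PDK4 label against the floor of 3 reads per library, with an adjusted p of 0.034 in the limma fit without the filter. Most of its reads came from Ad-PDK4 replicate 3. Whether the cells carried an intact reading frame of Cxcl11 was not examined. Cxcl9 (ENSMUSG00000029417, chromosome 5, 92321347 to 92328079, minus strand), the ligand of the trio that is best known as a target of interferon gamma, had 0, 0 and 1 reads against 4, 4 and 0 reads. The groups overlapped, the scaled count ratio was 7.76 with a 95% counting interval of 1.04 to 344, and the adjusted p was 0.31 in the limma fit without the filter. At this depth a difference in Cxcl9 was therefore not resolved between replicates, although its neighbour Cxcl10 had at least 1804 reads in the same group.

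Cxcl12 (ENSMUSG00000061353, chromosome 6, 117168535 to 117181367, plus strand), the constitutive stromal chemokine that retains progenitors and lymphocytes in tissue niches, was by far the most abundant member. Its levels were 105, 121 and 111 FPKM in the Ad-Con libraries and 131, 123 and 137 FPKM in the Ad-PDK4 libraries, from 16416 to 24785 reads per library. The lowest Ad-PDK4 library lay just above the highest Ad-Con library. The means were 112 ± 8.04 and 130 ± 7.07 FPKM (n = 3), and the log2 ratio was 0.22 (SE 0.07, 95% interval 0.06 to 0.37, limma adjusted p = 0.031). This call was lost in 7 of 15 alternatives, 1 of them the replicate block (adjusted p = 0.059) and 4 of them fits that left out a library. Cxcl14 (ENSMUSG00000021508, chromosome 13, 56288643 to 56296551, minus strand), another constitutive chemokine known from epithelia and fibroblasts, had 2, 0 and 0 reads against 0, 0 and 3. It was at or under the floor in every library, and no fold change is given.

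The membrane-bound members were present at low levels in both groups. Cxcl16 (ENSMUSG00000018920, chromosome 11, 70453983 to 70459984, minus strand), the ligand of Cxcr6 and a scavenger receptor for oxidized lipoprotein, had 207, 215 and 210 reads in the Ad-Con libraries and 706, 661 and 842 in the Ad-PDK4 libraries. The levels were 3.37, 4.05 and 3.83 FPKM against 12.8, 12.5 and 12.6 FPKM. The Ad-PDK4 libraries were tightly grouped and lay well above all Ad-Con libraries. Cxcl16 rose from 3.75 ± 0.351 to 12.7 ± 0.173 FPKM (n = 3), with a log2 ratio of 1.73 (SE 0.08, 95% interval 1.55 to 1.91, limma adjusted p = 2.4e-06), and was past the threshold in all 15 alternatives. It overlaps Zmynd15 on the opposite strand, which had 36 to 48 reads in the Ad-Con libraries and 66 to 102 in the Ad-PDK4 libraries, and whether counting used strand is not given in the sources used here.

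Fractalkine (Cx3cl1, ENSMUSG00000031778, chromosome 8, 94772009 to 94782427, plus strand), the ligand of Cx3cr1 on monocytes, had 2.94, 3.46 and 3.12 FPKM in the Ad-Con libraries and 4.75, 3.61 and 4.02 FPKM in the Ad-PDK4 libraries. The groups did not overlap, but the lowest Ad-PDK4 library lay close to the highest Ad-Con library. The log2 ratio was 0.36 (SE 0.12, 95% interval 0.09 to 0.64, limma adjusted p = 0.039). In 7 of 14 alternatives the call was lost, among them the replicate block (adjusted p = 0.077). Leaving out Ad-PDK4 replicate 1 moved the log2 value to 0.26 (adjusted p = 0.13).

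**Figure D2:**
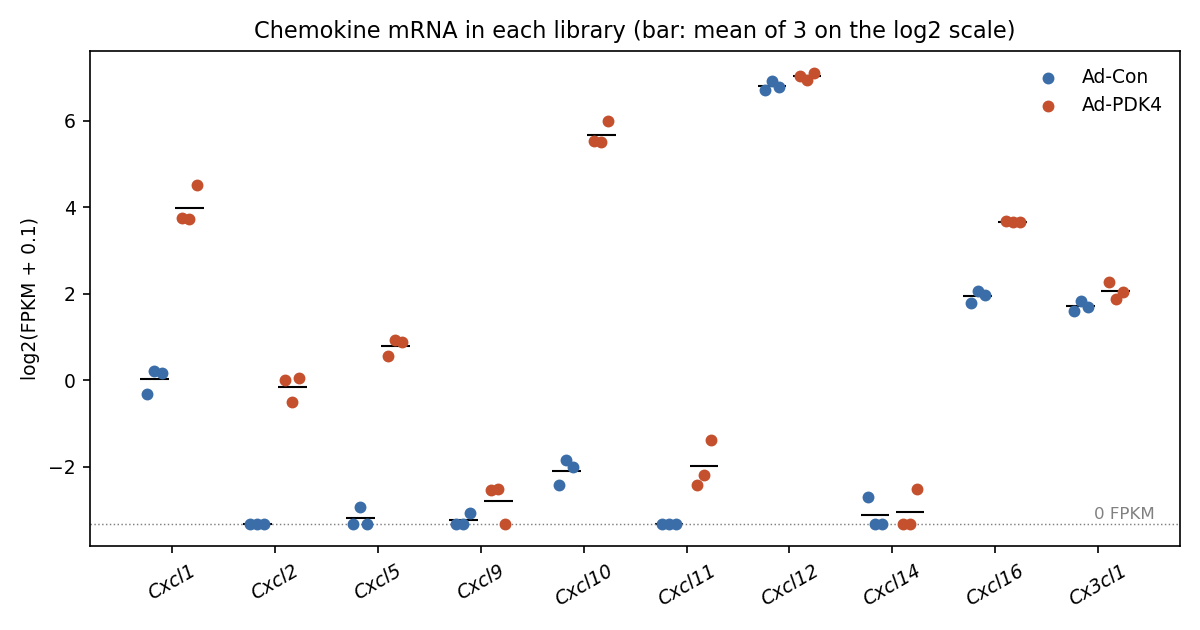
Level of each chemokine gene in each library, on a log2(FPKM + 0.1) axis, with a point for each library of Ad-Con and Ad-PDK4 and a bar for the mean of 3. Cxcl12 lies above all other members in both groups, while Cxcl10 goes from 0.137 to 51.7 FPKM and Cxcl9 and Cxcl14 stay near 0.

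**Figure D3:**
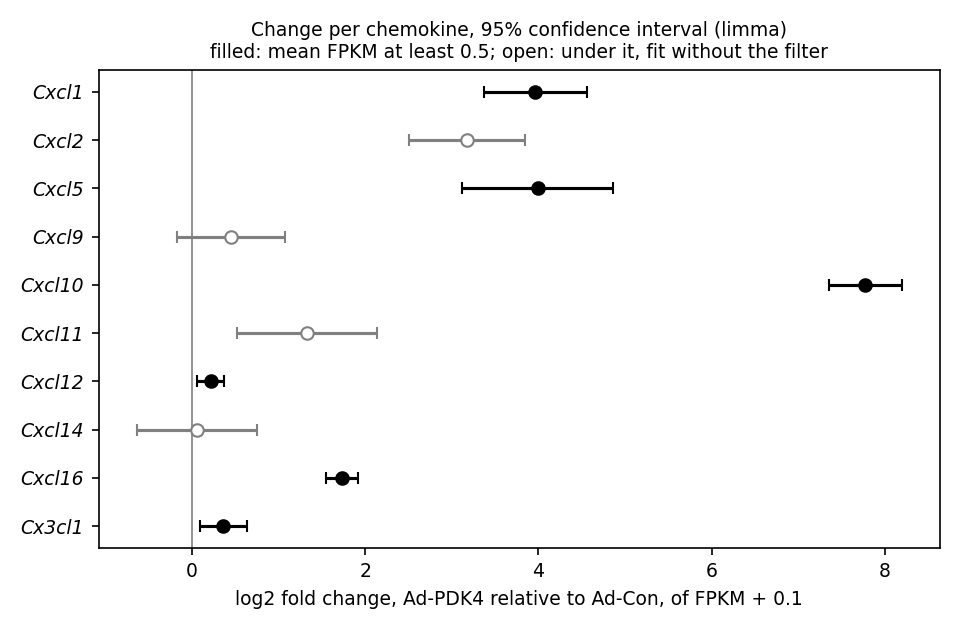
Log2 fold change of each chemokine gene, Ad-PDK4 relative to Ad-Con, with 95% intervals from limma (filled symbols for genes averaging 0.5 FPKM or more, open symbols for genes under it, from the fit without the filter). Cxcl10 lies at 7.77, Cxcl1 at 3.97 and Cxcl5 at 3.99, and the intervals of Cxcl9 and Cxcl14 include 0.

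The order of levels between genes can be read per length, as FPKM. In the Ad-Con libraries Cxcl12 came first, at 29.9 times the mean level of Cxcl16. Cxcl16 and Cx3cl1 followed with overlapping ranges, then Cxcl1 and Cxcl10, and the other 5 members lay at or near 0 with overlapping ranges. In the Ad-PDK4 libraries Cxcl12 still came first, but at 2.52 times the level of Cxcl10, which had moved to the second place. Below it stood Cxcl1, Cxcl16, Cx3cl1, Cxcl5, Cxcl2 and Cxcl11, each without overlap with the next, and then Cxcl9 and Cxcl14, which overlapped.

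Summed over the 10 genes, the level was 120 ± 8.83 FPKM in Ad-Con and 218 ± 22.1 FPKM in Ad-PDK4 (n = 3). Without Cxcl12 the sums were 8.03 ± 0.823 and 87.6 ± 15.7 FPKM. The share of Cxcl12 in the sum was 93.3 ± 0.256% in Ad-Con and 60.0 ± 3.10% in Ad-PDK4. The ligands of Cxcr3 took 0.118 ± 0.0346% and 23.7 ± 2.21%, nearly all of it Cxcl10, and the ELR chemokines took 0.780 ± 0.130% and 8.54 ± 1.67%. The share of Cxcl12 was between 93.1% and 93.6% in the Ad-Con libraries and between 56.5% and 62.2% in the Ad-PDK4 libraries, without overlap. These shares add up genes of unequal change and were not tested.

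**Figure D4:**
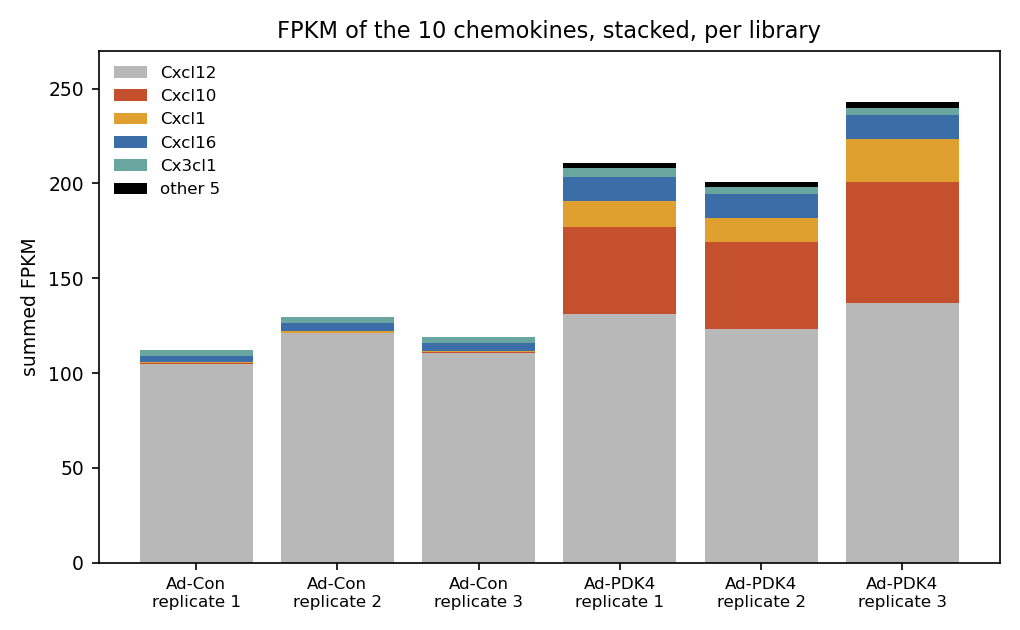
Stacked FPKM of the 10 chemokine genes in each of the 6 libraries, with summed FPKM on the vertical axis starting at 0. Cxcl12 fills nearly the whole bar in the Ad-Con libraries, and Cxcl10, Cxcl1 and Cxcl16 add visibly to it in the Ad-PDK4 libraries.

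The members on chromosome 5 lie in clusters with other genes. Within 100 kb of the span from Cxcl5 to Cxcl2 lay 11 other genes, of which 3 passed the filter. Cxcl15, an ELR chemokine known from the lung, was between Cxcl5 and Cxcl1 and had 16.2, 17.7 and 17.3 FPKM against 17.6, 15.0 and 17.7 FPKM. Its groups overlapped, with a log2 difference of -0.03 (95% interval -0.20 to 0.15, limma adjusted p = 0.82), so that an ELR chemokine of the same cluster showed no resolved difference. Stretches of 50 bases shared with 266 other genes made up 3.01% of the Cxcl15 transcript sequence. Mthfd2l, an enzyme of mitochondrial folate metabolism, fell by 0.39 on the log2 scale (limma adjusted p = 0.029), a call lost in 5 of 14 alternatives, and Gm43085, an unclassified transcript, had a log2 ratio of -0.54 (limma adjusted p = 0.21). Around Cxcl9, Cxcl10 and Cxcl11, 4 of 11 other genes passed the filter. Sdad1 and Nup54 rose by 0.55 and 0.25 on the log2 scale (limma adjusted p = 8.4e-04 and 9.4e-03), and Naaa and Scarb2 fell by 0.57 and 0.43 (limma adjusted p = 9.3e-04 and 2.6e-04).

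Of 5 further CXC chemokines, Cxcl3, Cxcl13 and Pf4 had at most 1 read in any library, Ppbp had 0, and Cxcl17 had 2 to 11. Receptors for CXC chemokines and fractalkine, not all of them receptors of the members, were as a group hardly present. Cxcr1, Cxcr3, Cxcr5, Cx3cr1 and Ackr1 had 0 reads in every library, Cxcr2 and Cxcr4 at most 1, and Cxcr6 had 5 or 6. A count of 0 allows up to 3 reads in a library. The exception among the 9 receptor genes was Ackr3, which removes Cxcl12 and Cxcl11 from the surroundings. It had 128, 110 and 130 reads in the Ad-Con libraries and 622, 667 and 822 in the Ad-PDK4 libraries, without overlap. Ackr3 rose from 1.96 ± 0.154 to 10.9 ± 0.616 FPKM (n = 3), a log2 ratio of 2.42 (SE 0.08, limma adjusted p = 6.2e-07).

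Of 6 genes that shed or trim these chemokines or act on a sheddase, 5 passed the filter and 4 were called higher, against the 21.8% of all genes tested. Timp3, an inhibitor of the sheddase Adam17, rose from 23.3 ± 1.26 to 69.8 ± 1.56 FPKM (log2 ratio 1.58, limma adjusted p = 6.0e-07). Adam17, which sheds fractalkine on stimulation, rose by a log2 ratio of 0.32 (limma adjusted p = 5.6e-03), and its partners Rhbdf2 and Rhbdf1 by 0.80 and 0.40 (limma adjusted p = 2.3e-04 and 0.011). Adam10, the constitutive sheddase of Cxcl16 and fractalkine, had a log2 value of -0.12 (limma adjusted p = 0.10). The called genes of the list thus included both an inhibitor and its target. Dpp4, a protease that trims Cxcl10 and Cxcl12, lay under the filter with 17, 17 and 9 reads against 49, 47 and 73, and had an adjusted p of 0.013 in the limma fit without the filter.

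Of 5 transcription factors on the interferon side, all passed the filter and 4 were called higher, against 21.8% of all genes tested. Irf7, the factor that amplifies type I interferon production, rose from 5.69 ± 0.794 to 184 ± 11.6 FPKM (n = 3), a log2 ratio of 5.00 (limma adjusted p = 8.5e-08). Stat2 and Irf9, which carry the type I interferon signal to response elements, rose by 2.62 and 1.58 on the log2 scale (limma adjusted p = 9.6e-08 and 6.7e-07). Irf3, which is activated by phosphorylation, had a log2 value of 0.02 (limma adjusted p = 0.88). Of 8 NF-kB factors and inhibitors, all 8 were called higher, against the same 21.8%. The call of the subunit Rela (log2 ratio 0.17, limma adjusted p = 0.031) was, however, lost in 9 of 15 alternatives. The largest changes were those of the feedback gene Tnfaip3 (log2 ratio 2.17, limma adjusted p = 1.0e-06) and of Nfkbiz (1.67, limma adjusted p = 1.5e-05), followed by the subunit Relb (0.99, limma adjusted p = 4.2e-05). The median log2 ratio was 1.58 over the interferon factors and 0.78 over the NF-kB genes, and -0.003 over all genes tested.

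Of 6 genes that set the decay of chemokine mRNA, 4 were called higher and none lower, against 21.8% and 20.8% of all genes tested. Zc3h12a, a ribonuclease that degrades inflammatory transcripts, rose by 1.85 on the log2 scale (limma adjusted p = 5.4e-05), Zfp36l1, a decay factor of AU-rich mRNA, by 0.92 (limma adjusted p = 1.6e-05), and Elavl1, which stabilizes such mRNA, by 0.31 (limma adjusted p = 0.020). Zfp36, the prototype of the decay factors, had a log2 value of 0.33 (limma adjusted p = 0.16). The cytokines that usually induce the members were scarce. Ifng, Il1b and Il17a had 0 reads in all libraries, Tnf at most 2 and Il1a at most 3. Ifnb1, encoding interferon beta, had 0 reads in each Ad-Con library and 7, 5 and 5 in the Ad-PDK4 libraries, which is at least 1.85-fold higher against the floor of 3 reads per library (limma fit without the filter, adjusted p = 2.1e-03). Of 7 receptors for these cytokines, 4 were called higher and none lower, against the same 21.8% and 20.8%, among them Ifnar2, a chain of the type I interferon receptor (log2 ratio 1.22, limma adjusted p = 1.4e-06), Il17ra (0.50, limma adjusted p = 6.8e-04) and Ifngr1 (0.36, limma adjusted p = 2.2e-03).

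**Figure D5:**
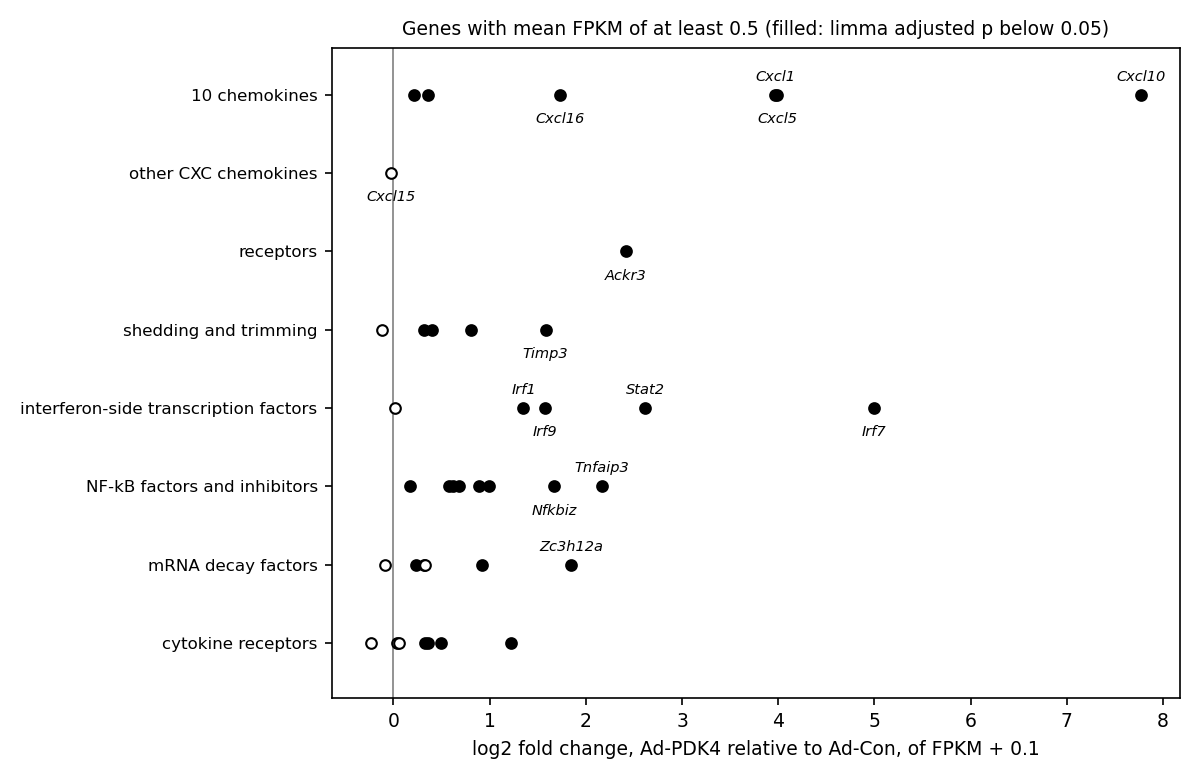
Log2 fold change of the tested genes among the 10 chemokines (top row) and in each list around them, Ad-PDK4 relative to Ad-Con, on the log2(FPKM + 0.1) scale, with a point for each gene (filled where the limma adjusted p was below 0.05). Below the top row, Irf7 lies farthest to the right at 5.00, and all 8 NF-kB genes lie to the right of 0.

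Leukocytes and endothelial cells also make these chemokines, so their markers are set beside the values above. Of 8 macrophage markers, Ptprc, Tyrobp, C1qa and Itgam had 0 reads in every library and Adgre1 at most 1. The list summed to 15.0 to 17.9 FPKM in the Ad-Con libraries and to 5.91 to 7.44 FPKM in the Ad-PDK4 libraries. The main part of it was Cd68, with 416, 299 and 294 reads against 111, 105 and 86, which fell by 1.74 on the log2 scale (limma adjusted p = 4.4e-04). Csf1r and Lyz2, also on the macrophage list, lay higher in each Ad-PDK4 library than in any Ad-Con library. Csf1r had 11, 23 and 35 reads against 56, 62 and 61, under the filter, and Lyz2 had 1.51 ± 0.195 against 1.98 ± 0.250 FPKM (limma adjusted p = 0.079). Endothelial markers summed to 0.617 to 0.798 and to 0.885 to 1.18 FPKM. Most of this was Kdr, with 0.536 ± 0.110 against 0.919 ± 0.199 FPKM (limma adjusted p = 0.065), while Pecam1 had 0.101 against 0.0651 and Vwf 0.0585 against 0.0327 mean FPKM, and Cdh5, Tek and Tie1 had at most 4 reads in any library. Lymphocyte markers summed to 0.0619 to 0.265 and to 0.0311 to 0.157 FPKM, and neutrophil markers to 0 and to at most 0.130 FPKM. Fibroblast markers, described above with those of smooth muscle, summed to 1599 to 1742 FPKM in Ad-Con and to 835 to 918 FPKM in Ad-PDK4. The part of macrophage, endothelial or fibroblast RNA in the chemokine values was not tested.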

How the data were processed

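The deposited table gave FPKM per gene and library, which the authors computed from counts of reads on genes. The submitters' processing notes name CASAVA 1.8, fastp, HISAT2 2.0.5, featureCounts 1.5.0-p3, DESeq2 1.20.0 and GRCm39, but 98.3% of the 54495 identifiers found in GENCODE mouse release 21 had the GRCm38 coordinates of that release, all 10 members among them, so coordinates are on GRCm38. The labels name a SMARTER kit and the methods a NEBNext Ultra kit. Multiplied back by gene length, all non-zero values were whole multiples of 1 step per library within 0.01 reads, and these multiples are called reads. FPKM is not a count, so limma 3.58.1 in R 4.3.3 was fitted to log2(FPKM + 0.1) over all 6 libraries, without covariates and with trend and robust moderation. The test covered genes averaging 0.5 FPKM or more, and Benjamini-Hochberg adjustment ran over all of them. The threshold for a call was an adjusted p of 0.05. Groups came from the treatment labels and replicate numbers from the titles. All adjusted p-values are from limma. The procedure was tested on simulated data. A group at 3 reads or fewer in every library was taken as at the floor.

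The members, the lists around them and the naming rule were chosen with earlier results of these data known. Named were all members, all genes of the lists of other CXC chemokines and receptors, up to 3 called genes with the largest change in every other list, tested neighbours within 100 kb of the chromosome 5 spans, the 3 genes nearest in profile to Cxcl1, Cxcl10, Cxcl12 and Cx3cl1, and Pdk4. Art3, Zmynd15, Adam17, Adam10, Dpp4, Irf3, Zfp36, Rela, the inducing cytokines and the cell type markers were named after their values were seen. A gene of the list of interferon-side factors is not reported here, and the counts and median of that list leave it out. The alternatives were pseudocounts of 1 and 0.01, no filter, a mean FPKM of at least 5, TPM proportions, quantile normalization, median of ratios (the same factor for every library, so void), no trend and not robust, the replicate block, limma-voom on the recovered reads, and each library left out.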

Additional observations from a re-analysis of the deposited data

How the results depend on the processing

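Cxcl1, Cxcl10 and Cxcl16 kept their direction and their side of the threshold in all 15 alternatives that could change a value, and Cxcl5 in the 14 of these that gave it one, since Cxcl5 and Cx3cl1 were not tested under the filter at 5 FPKM. The median of ratios gave every library the same factor, could change nothing and is not counted. No value reversed. The calls of Cxcl12 and Cx3cl1 were lost without the filter (0.22, adjusted p = 0.063, and 0.36, adjusted p = 0.082), without trend and robust moderation (0.22, adjusted p = 0.071, and 0.36, adjusted p = 0.057) and with the replicate block (0.22, adjusted p = 0.059, and 0.36, adjusted p = 0.077). Leaving out each library in turn, Cxcl12 ran from 0.17 to 0.27 and Cx3cl1 from 0.26 to 0.45 on the log2 scale. The calls of both were lost without Ad-Con replicate 1 or 3 and without Ad-PDK4 replicate 1 or 3. For Cxcl12 these fits gave adjusted p = 0.10, 0.091, 0.089 and 0.085, and for Cx3cl1 0.12, 0.098, 0.13 and 0.075. Members called higher numbered 4 to 6 in the alternatives. The 6 of the fit without the filter include Cxcl2 and Cxcl11 in place of Cxcl12 and Cx3cl1.

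With a mean FPKM of at least 5, mRNA decay factors called higher numbered 2 in place of 4, and genes called with a fold of at least 2 numbered 258 higher and 114 lower in place of 530 and 360, since fewer genes were tested. With a pseudocount of 1 the latter were 153. Without the filter 1 inducing cytokine, Ifnb1, was called higher, and without trend and robust moderation 1 cytokine receptor was called lower. On the list of shedding and trimming, 1 gene was called lower after quantile normalization, and 0 to 1 when a library was left out. The cause of these last changes was not tested.

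The replicate numbers share only a number. Deviations of same-numbered libraries from their group means correlated at -0.046, -0.031 and -0.0013, so the replicate block is given only as an alternative. Depth limits Cxcl9 and Cxcl14, which had at most 4 reads in any library.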

Other observations

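The genes whose profile over the 6 libraries was nearest to a member, measured as the root mean square difference of their log2 values after subtracting each gene's Ad-Con mean, are given as a description. Nearest to Cxcl1 were Ccl2, which attracts monocytes (0.188), Ifi207 (0.202) and the RNA helicase Ddx60 (0.208). Ccl2 went from 18.1 to 275 mean FPKM, a log2 ratio of 3.89 (limma adjusted p = 7.0e-06). Nearest to Cxcl10 were the MHC class I gene H2-Q5 (0.322), annotated as a polymorphic pseudogene, Phf11b (0.651) and Saa3, an acute-phase serum amyloid A (0.658). Their log2 ratios were 7.55, 6.94 and 8.59, against 7.77 for Cxcl10. Nearest to Cxcl12 were Zfp639 (0.0257), BC003965 (0.0259) and Sft2d1 (0.0321), and nearest to Cx3cl1 D6Wsu163e (0.0558), Gas5 (0.0569) and Gimap9 (0.0605), all with log2 values between 0.21 and 0.36. Zfp639 and Gimap9 were not past the threshold (limma adjusted p = 0.065 and 0.16).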
